A study of Homo sapiens with 62 samples.

Results

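The cytosolic ribosomal protein genes encode the proteins of the small (RPS) and large (RPL, with the stalk proteins RPLP0, RPLP1 and RPLP2) subunits of the ribosome that translates nuclear-encoded messages. They were taken by name: gene names made of RPL or RPS and a number, with an optional A, X or L, together with RPLP0, RPLP1, RPLP2 and RPSA, and without RPL7L1. Of the 29794 genes in the tables, 81 names matched, and 77 of these had a mean of at least 50 reads in the DMSO 4 h libraries of both cell lines. These 77 members comprised 31 small subunit and 46 large subunit genes. RPL10L (0 reads on average in both lines), RPL3L (0.2 in AsPC-1 and 12.5 in T3M-4), RPL39L (5.4 and 2230) and RPS18 (49.2 and 62.0) fell outside, and RPS9 (108 and 161) lay just inside.

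Ribosomal protein messages are among the most abundant in growing cells, and they are known as long-lived messages whose output is set to a large degree by translation. Most of them begin with a 5′ terminal oligopyrimidine (TOP) tract, a cytosine at the first base followed by a run of pyrimidines, through which mTOR signalling and the binding protein LARP1 tune their translation. The subunits are assembled in the nucleolus with ribosomal RNA, so that their genes are usually expressed together.

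SLAM-seq was run on 62 libraries (42 from AsPC-1, 20 from T3M-4), whose cells are pancreatic ductal adenocarcinoma cell lines used as models of the classical and the basal-like subtype. In every library of both lines, endogenous KLF5 had been knocked out with a guide RNA (sgEndogenousKLF5) and replaced by a lentiviral FKBP12-F36V-FLAG-KLF5, a KLF5 transcription factor fused to a degron tag, in selected populations of cells. Cells took up 4-thiouridine (4sU) for 2 h before harvest, and reads of RNA made in that time carry T>C conversions. The labelled share used here is the T>C reads of a gene as a percentage of all its reads, a description of how much of a message was recently made. In AsPC-1 the 4 h groups were dTAG (dTAGv-1, which degrades the tagged KLF5; 10 libraries), NEG (its inactive analogue dTAGv-1-NEG; 10), CB6644 (CB-6644, which blocks the ATPase activity of RUVBL1/2; 5), NVP2 (NVP-2, an inhibitor of the transcription kinase CDK9; 4) and the solvent DMSO (5), and at 12 h CB6644 (4) and DMSO (4). In T3M-4 the same 5 treatments were given for 4 h with 4 libraries each. The comparisons ask how new and total RNA respond to loss of KLF5, to RUVBL1/2 inhibition and to a block of transcription. Libraries are named by replicate number as deposited (1.1, 1.2, 2.1), the leading number of which is called the experiment here.

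Library totals ran from 8.27e+07 to 2.45e+08 reads in the 61 libraries with usable all-reads columns and from 2.24e+06 to 2.8e+07 T>C reads in all 62. The all-reads column of AsPC-1 dTAG replicate 3.1 was left out because it holds fewer reads than its T>C column for many genes and repeats another library's values, so all reads and labelled shares rest on 9 dTAG libraries there. The degrader acts on the protein, so KLF5 reads do not check it, and they were 0.60 ± 0.11 (SE) higher on the log2 scale of T>C reads in AsPC-1 dTAG than NEG (adjusted p = 0.00284, edgeR's quasi-likelihood test). Line markers followed the labels in most cases: LGALS4 had 105 reads-per-million (RPM, all reads of a gene scaled to the library total) in AsPC-1 and 0.30 in T3M-4, KRT5 0.058 and 273, although CDX2, fixed as a classical marker, was alike in both (2.29 and 2.54). Summed markers of fibroblasts, macrophages and endothelial cells lay between 0.58 and 5.33 RPM across all libraries. An unlabelled control was not analysed here, so background T>C reads were not measured. The authors state that their SLAM-seq held no spike-in, so fewer cells cannot be told apart from less RNA per cell. AsPC-1 NVP2 and DMSO 4 h libraries belong to different batches by their labels, so that batch and treatment cannot be told apart in that comparison, whereas the T3M-4 groups were split evenly over batches 1 and 2.

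The starts of the transcripts are shown first because the TOP tract is a known feature of most messages of this group, though not of all and not of this group alone. Each window runs from 8 bases before the RefSeq start (GRCh38.p14) to 20 bases into the transcript, 5′ to 3′ on the coding strand, and the TOP tract is in capitals. The first 4 are members described throughout for their roles: the stalk base protein RPLP0, the kinase target RPS6, RPL13A and the laminin receptor homologue RPSA. The next 4 are members among those that kept the most labelling after NVP-2 in at least 1 line, and the last 3 are members without a tract at the annotated start.
RPLP0, chr12:120201092-120201119, minus strand: cgcgaggcCCTTCTCTCgccaggcgtcc
RPS6, chr9:19380217-19380244, minus strand: agttggccCTCTTTTCCgtggcgcctcg
RPL13A, chr19:49487600-49487627, plus strand: acctcctcCTTTTCCaagcggctgccga
RPSA, chr3:39406712-39406739, plus strand: ccgcctgtCTTTTCCgtgctacctgcag
RPL38, chr17:74203670-74203697, plus strand: gtctcgttCTTTTTCgtccttttccccg
RPL31, chr2:101002281-101002308, plus strand: ttcgcgctCTTCCTTTCCaacttggacg
RPS21, chr20:62387095-62387122, plus strand: agctgcttCCTTTCTCTCTCgcgcgcgg
RPL34, chr4:108620568-108620595, plus strand: tttttcttCCTCTTCCggggacgttgtc
RPL3, chr22:39319604-39319631, minus strand: cgaccggcctctaccggcgggatttgat
RPL11, chr1:23691771-23691798, plus strand: tggcccataaggccctcggccggaagct
RPS27L, chr15:63157458-63157485, minus strand: tgccgagcgcagatcgcttgcagcttgc

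A promoter entry was matched for 62 of the 77 members. A C followed by at least 4 pyrimidines stood exactly at the annotated start in 41 of the 62 (66.1%), against 502 of 9084 matched genes expressed in both lines (5.53%) and 1104 of 27305 promoters in the whole table (4.04%). Allowing the tract to begin within 5 bases of the start, the counts were 49 of 62 (79.0%), 22.4% of expressed genes and 21.1% of all promoters. The search was made on the transcript strand only, and the median tract of the members was 8 bases, the longest 19. Mitochondrial ribosomal proteins held a tract in 4 of 67 cases (5.97%), respiratory chain genes in 9 of 63 (14.3%) and proteasome subunits in 0 of 29. Translation factors held one in 12 of 16 (75%). That list was drawn up from factors with TOP messages and ribosome-associated genes, so its count follows largely from the choice and is no finding. The members also had short 3′UTRs in the GENCODE v44 canonical transcript, with a median of 139 bases against 1344 over expressed genes. Their T content was 29% against 33% in the last 100 bases, the end at which these 3′ libraries are primed. Where the reads fell within the transcripts was not measured. A gene with fewer T bases in its reads has fewer positions that can be converted, and its part in the labelled share was not tested. Across the 77 members, Spearman's rho between the labelled share and T content was 0.31 in AsPC-1 and 0.07 in T3M-4, and between the share and 3′UTR length 0.07 and 0.01. These are descriptions across genes of the same libraries and carry no p.

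The ribosomal protein messages were among the least labelled of the expressed genes. In DMSO at 4 h the median member had a labelled share of 3.63% in AsPC-1 (n = 5) and 5.24% in T3M-4 (n = 4), against medians of 15.4% and 17.4% over the 11565 genes with at least 50 reads in both lines. The members' median thus sat at the 5.65th percentile of these genes in AsPC-1 and at the 6.75th in T3M-4. In AsPC-1, 76 of 77 members lay below the median of all genes, and in T3M-4 73 of 77. Respiratory chain genes came closest, with medians of 4.94% and 5.74%. Translation factors had 5.95% and 9.31%, and proteasome subunits 8.52% and 8.93%. The mitochondrial ribosomal proteins, which serve the ribosome of the mitochondrion, had 10.2% and 11.2%, and the ribosome biogenesis factors 14.5% and 17.0%, near the middle of all genes. The order of members was partly shared by the lines, with a Spearman's rho of 0.70 over the 77 genes.

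**Figure D1:**
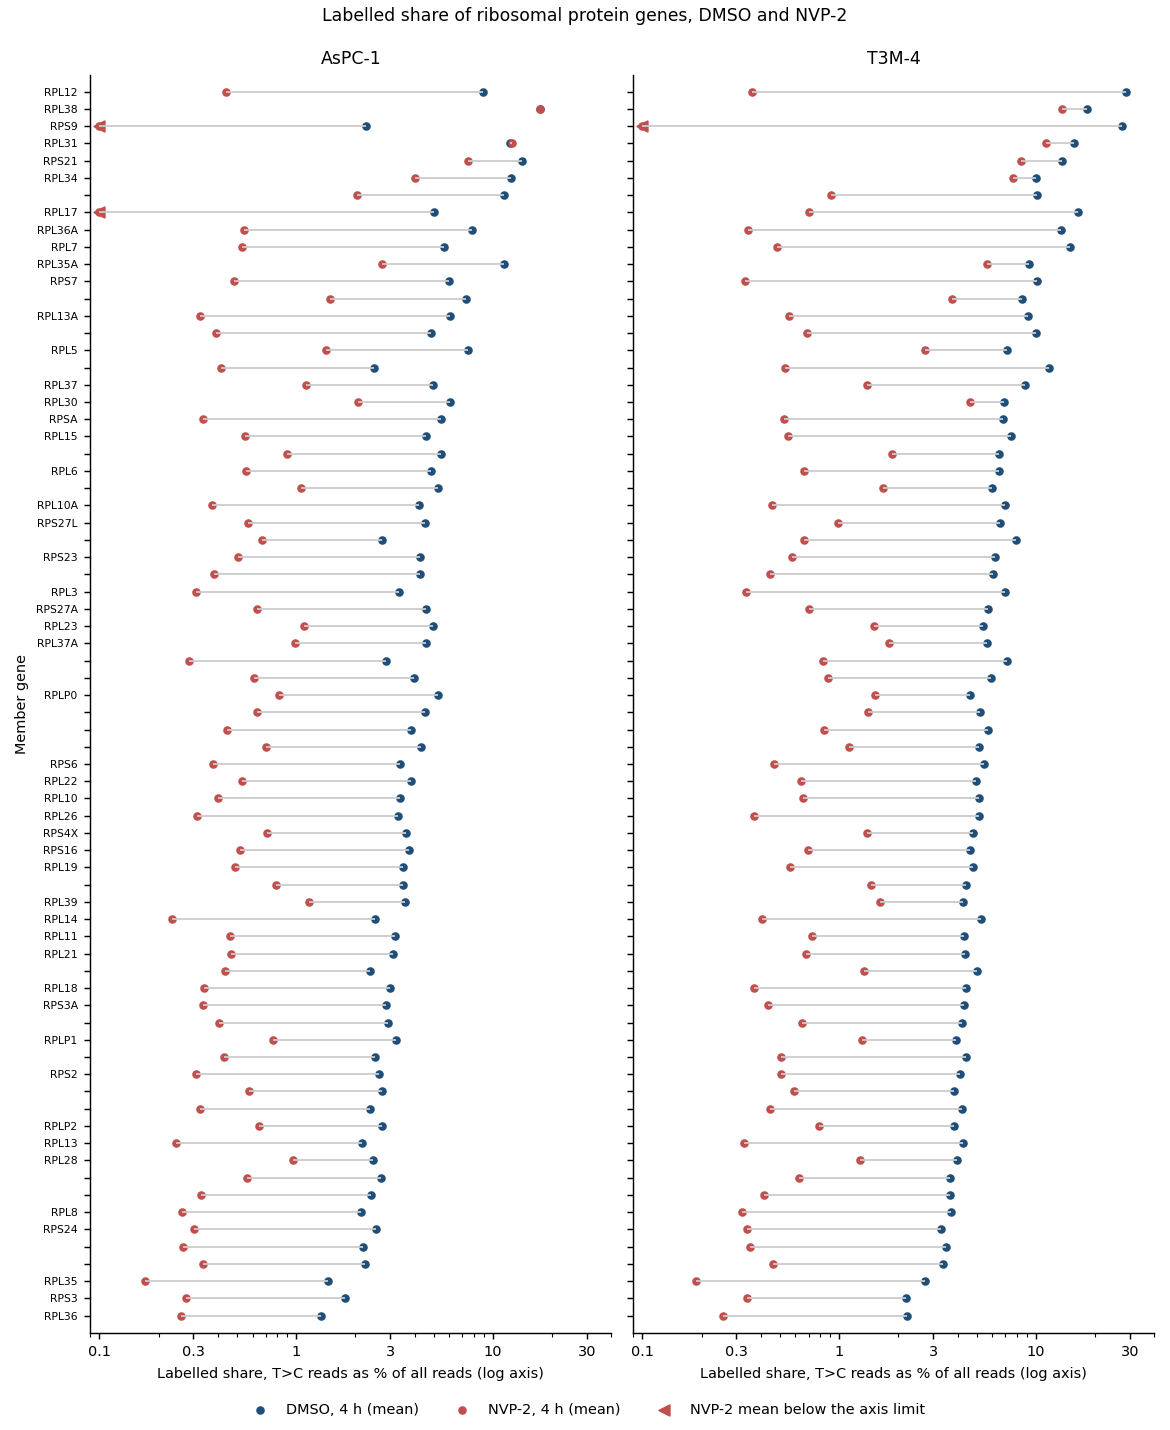
Mean labelled share of the members (T>C reads as % of all reads, log axis) in DMSO 4 h (blue; 5 AsPC-1 and 4 T3M-4 libraries) and NVP2 4 h (red; 4 and 4 libraries), 1 row per gene. Most pairs are far apart, while RPL38 and RPL31 in AsPC-1 have both points nearly together; genes named in the text are labelled, a few members are not drawn, and arrowheads mark NVP2 means below 0.1%.

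The stalk proteins, which recruit the GTPase factors of elongation, were close to this level. RPLP0 had labelled shares of 4.88, 5.27, 5.61, 5.29 and 5.27% in the AsPC-1 DMSO 4 h libraries and 5.29, 5.43, 4.02 and 3.82% in those of T3M-4. The T3M-4 libraries of batch 1 were thus the higher pair, and the lines overlapped. RPLP1 (3.2% ± 0.28 SD in AsPC-1 and 3.94% ± 0.19 in T3M-4) and RPLP2 (2.72% ± 0.26 and 3.81% ± 0.33) were lower than RPLP0 in AsPC-1. RPS6, the small subunit protein phosphorylated by S6 kinase, had 3.38% ± 0.31 and 5.48% ± 0.37, and RPSA, which is also known as the laminin receptor precursor, 5.46% ± 1.69 and 6.77% ± 1.32. RPL5 and RPL11, which with 5S RNA bind MDM2 when assembly fails, differed from each other in both lines: RPL5 had 7.45% ± 1.3 and 7.12% ± 0.41, and RPL11 3.16% ± 0.39 and 4.31% ± 0.21. RPL3, of the peptidyl transferase region, had 3.35% ± 0.37 and 6.99% ± 0.60, and RPL10, which joins the large subunit late, 3.39% ± 0.33 and 5.11% ± 0.31. RPS27A, made as a fusion with ubiquitin, had 4.57% ± 0.57 and 5.74% ± 1.94, and the p53-responsive paralog RPS27L 4.51% ± 0.87 and 6.60% ± 1.28. RPL22 (3.83% ± 0.18 and 4.96% ± 0.17), RPS4X, which escapes X inactivation (3.63% ± 0.23 and 4.8% ± 0.13), and RPL13A (6.08% ± 1.09 and 9.11% ± 1.25) completed the fixed set.

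Among the members of lowest mean share over the 2 lines were RPL36 (1.34% ± 0.31 and 2.21% ± 0.25), RPS3 (1.77% ± 0.21 and 2.2% ± 0.26) and RPL35 (1.46% ± 0.19 and 2.73% ± 0.13). RPS3 was among the most abundant members, with 5890 to 10446 RPM in AsPC-1 DMSO and 8131 to 12139 in T3M-4. At the upper end stood RPL38, with 17.6, 15.7, 19.9, 16.5 and 17.5% in AsPC-1 and 27.7, 15.6, 14.6 and 14.4% in T3M-4. RPL31 (12.2% ± 2.82 and 15.6% ± 3.62) and RPS21 (14% ± 3.82 and 13.6% ± 1.97) were also high in both lines. RPL12 (8.91% ± 3.23 and 28.7% ± 14.6) and RPS9 (2.26% ± 3.70 and 27.4% ± 16.4) had the highest means in T3M-4, and both rest on few reads: RPS9 had 60 to 332 reads per T3M-4 DMSO library. The Wilson 95% interval for RPS9 in T3M-4 DMSO replicate 2.1 (78 T>C of 150 reads) ran from 44.1 to 59.8%, for counting error only, which PCR duplicates without molecular identifiers make too narrow. All counts of RPS9 in T3M-4 and of RPL12 in AsPC-1 were multiples of 2, so their counting error is larger still.

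Processed copies of these genes share sequence with them, and reads could have been split between them. The tables held 823 pseudogene rows for 74 of the names, with reads equal to 3.95% of the members' own in AsPC-1 and 4.44% in T3M-4. The share was uneven. RPL12 had 1494 reads on average in AsPC-1 DMSO against 19010 in its 31 pseudogene rows, RPL17 1057 against 9374 in 27 rows, and RPL7 3316 against 20363 in 36 rows, so that these members are uncertain. Pseudogene reads also outnumbered the gene's own for RPL37 (32296 against 24380), RPL6 (30819 against 24661) and RPS7 (19552 against 13612) in AsPC-1, and for the same 3 in T3M-4, so that their values carry the same doubt. These are examples, and other members were in the same position in one line or both. RPL31 had 100399 against 17156 reads in 34 rows, RPL38 56054 against 4572 in 2 rows, and RPS21 116536 against 0.6 in 2 rows.

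Together the members took 8.27 to 12.5% of all reads in the 61 libraries, and their summed labelled share was lower than that of the library in all but 2 of them. In AsPC-1 DMSO 4 h the summed share was 3.90, 3.84, 4.64, 3.81 and 3.98%, with library-wide shares between 9.36 and 10.6%. In T3M-4 DMSO it was 6.01, 5.58, 5.31 and 5.51%, with library-wide shares between 11.1 and 14.1%. The members' share divided by the library-wide share was thus 0.360 to 0.439 (AsPC-1) and 0.417 to 0.498 (T3M-4). In T3M-4 NVP2 this ratio reached 1.06 and 1.08 in batch 2, the only libraries above 1, and was 0.658 and 0.737 in batch 1.

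**Figure D2:**
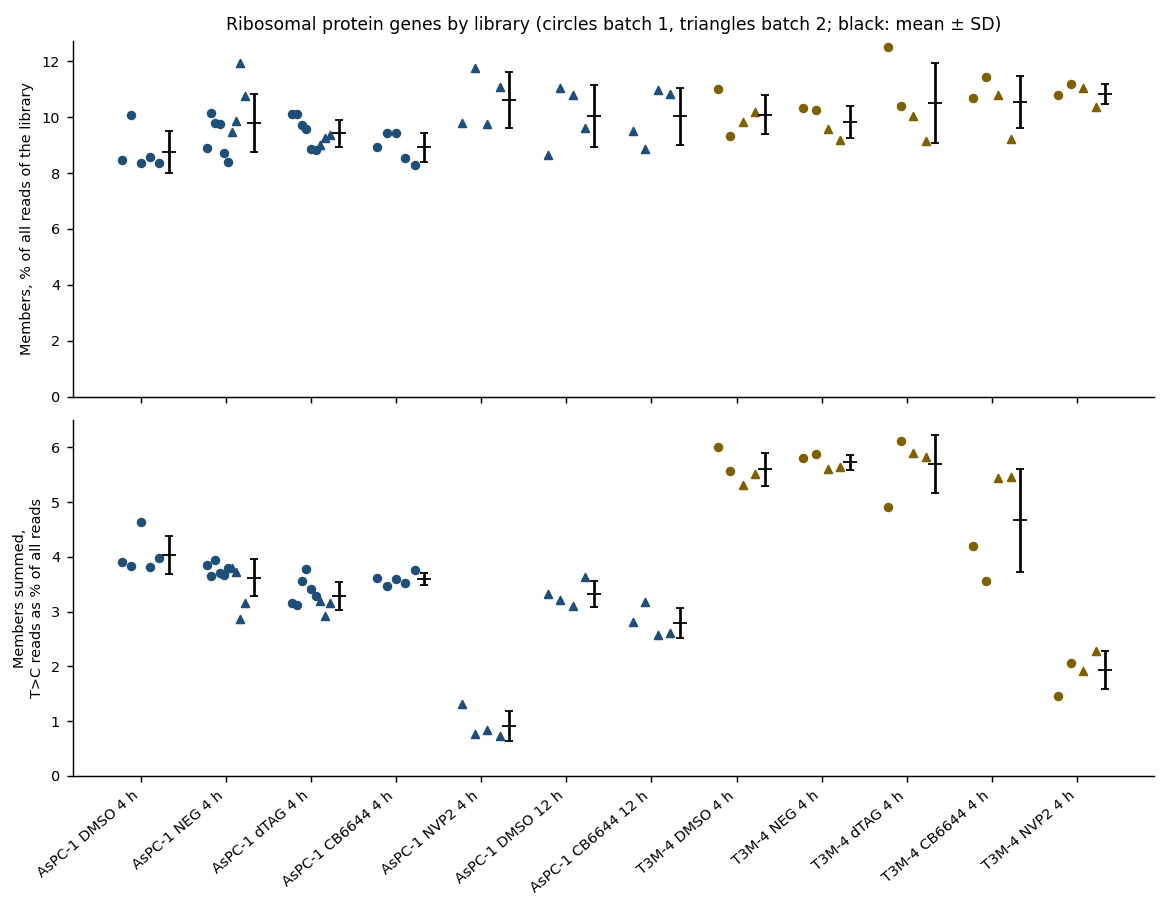
Each point is 1 library: above, the members' summed reads as % of all reads of the library, and below, their summed T>C reads as % of their all reads, by group, with circles for batch 1, triangles for batch 2 and bars for mean ± SD. The share of all reads stays between 8.27 and 12.5%, while the labelled share is lowest in the NVP2 groups of both lines.

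CDK9 inhibition by NVP-2 lowered the labelled share of nearly all members. The summed share was 1.31, 0.77, 0.84 and 0.74% in AsPC-1 NVP2 and 1.46, 2.06, 1.92 and 2.29% in T3M-4 NVP2, below every DMSO library of the same line. With edgeR's quasi-likelihood test of T>C reads against the gene's own all reads, 72 of 75 members tested fell and 0 rose in AsPC-1 (adjusted p under 0.05), where 96.2% of all genes fell and 0.0263% rose. In T3M-4, 71 of 75 fell and 0 rose, against 91.4% and 0.00823% of all genes. The members' count thus stood at the background in both lines. Their median log2 fold change was -2.79 in AsPC-1 (all genes -3.03) and -2.87 in T3M-4 (all genes -2.97). Relative to the library-wide share, 11 members rose and 20 fell in AsPC-1 (8.16% and 26.9% of all genes), and 20 rose and 28 fell in T3M-4 (8.21% and 21.3%).

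The fall of smallest p in AsPC-1 was that of RPL26, a large subunit protein near the exit tunnel. RPL26 had labelled shares of 3.36, 3.2, 3.65, 3.27 and 3.06% in AsPC-1 DMSO and 0.35, 0.28, 0.28 and 0.34% after NVP-2, with no overlap (log2 fold change -3.40 ± 0.16, adjusted p = 1.13e-08, edgeR). RPL10A (-3.50 ± 0.16), RPS23 (-3.08 ± 0.15), RPS24 (-3.07 ± 0.15) and RPS2 (-3.09 ± 0.16) fell alike in AsPC-1; that of RPS23 was no longer called relative to the library-wide share. In T3M-4, RPL13A went from 10.0, 10.3, 7.93 and 8.14% to 0.42, 0.66, 0.58 and 0.57% (log2 fold change -4.03 ± 0.23, adjusted p = 1.07e-06, edgeR). RPL19 (-3.10 ± 0.18), RPL15 (-3.77 ± 0.22), RPS24 (-3.28 ± 0.19) and RPL10A (-3.92 ± 0.23) were the others of smallest p there. RPLP0 went to 0.81% in AsPC-1 and 1.52% in T3M-4, and RPS6 to 0.38% and 0.47%.

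A few members kept most of their labelled share, and the transcripts named first lie at chr17:74203582-74210655 (RPL38, plus strand) and chr2:101002229-101024032 (RPL31, plus strand) in GENCODE v44. The share left after NVP-2, as a percentage of that in DMSO, had a median of 14.1% over the members in AsPC-1 (all genes 12.0%) and 12.9% in T3M-4 (12.4%), but it was over 50% for 4 members in AsPC-1 (5.19%, against 2.43% of all genes) and 7 in T3M-4 (9.09%, against 4.68%). RPL38, a small protein of the large subunit, had 15.8, 21.0, 11.7 and 21.0% in AsPC-1 NVP2, around its DMSO values of 15.7 to 19.9%, and 23.7, 12.9, 8.45 and 9.06% in T3M-4. Its log2 fold change of the share was -0.00 ± 0.18 in AsPC-1 and -0.42 ± 0.35 in T3M-4, with adjusted p of 0.98 and 0.256 (edgeR). RPL31 had 8.98, 7.90, 12.3 and 20.8% in AsPC-1 NVP2 against 8.92 to 14.6% in DMSO, and 6.72, 10.7, 14 and 13.6% in T3M-4 against 11.2 to 19.0%. In both genes the NVP2 libraries overlapped DMSO in both lines. RPS21 kept 7.43% in AsPC-1 and 8.38% in T3M-4 on average, which is 53.1 and 61.8% of its DMSO share, and was called lower in both. RPL34 kept 32.7% of its share in AsPC-1 and 76.3% in T3M-4, RPL35A 24.1 and 61.8%, and RPL30 33.8 and 67.4%. The residual percentages of the lines had a Spearman's rho of 0.82 over the 77 members, as a description.

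The T>C reads themselves, scaled to the total of T>C reads in each library (T>C RPM), show how the remaining new RNA was divided. Members made up 3.2 to 3.67% of T>C reads in AsPC-1 DMSO and 5.27 to 6.75% after NVP-2, and 3.88 to 5.08% and 7.10 to 11.7% in T3M-4. In AsPC-1, 36 of 75 members were higher and 4 lower (12.9% and 17.6% of all genes), with a median log2 fold change of 0.75 against -0.05 over all genes. In T3M-4, 23 of 75 were higher and 6 lower (12.4% and 14.2% of all genes), with a median of 0.24 against -0.12. These directions are relative: scaled by the all reads of the library, 0 members were higher and 71 lower in AsPC-1 (edgeR, 0.0522% and 94.1% of all genes), 0 and 69 in T3M-4 (0.0735% and 87.2%), and the medians moved to -2.45 and -2.84 (all genes -3.26 and -3.09). With libraries summed per experiment, 13 were higher and 2 lower in AsPC-1 (2.95% and 5.36% of all genes) and 0 were called in T3M-4 by edgeR (25 at an unadjusted p under 0.05), where 0% of all genes were called. Without DMSO replicate 1.2 the T3M-4 counts were 18 and 1 (9.49% and 9.84% of all genes). In T3M-4, batch 1 alone had 18 higher and 10 lower (12% and 13.5% of all genes) with a median of -0.07, and batch 2 alone 27 higher and 0 lower (9.34% and 10%) with a median of 0.46.

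RPL31 rose most clearly in AsPC-1 on this scale. It had 1073, 1024, 1178, 943 and 1233 T>C RPM in DMSO and 8067, 5266, 7599 and 14868 after NVP-2, a 12.0-fold difference (log2 3.58 ± 0.31, adjusted p = 4.03e-05, edgeR). Scaled to all reads of the library, its T>C reads were 88.2 to 124 RPM in DMSO and 78.0 to 201 after NVP-2, so that no rise remained past the threshold on that scale. RPL38 (2.83 ± 0.26), RPS21 (2.42 ± 0.34), RPL37A (1.80 ± 0.27) and RPL36 (1.96 ± 0.29) were the next in AsPC-1, and all 4 turned lower when scaled by all reads. In T3M-4, RPL38 took 1422, 1113, 1106 and 1151 T>C RPM in DMSO and 7403, 4308, 4147 and 4043 after NVP-2 (log2 2.61 ± 0.27, adjusted p = 0.000294, edgeR). RPS21 (2.42 ± 0.28), RPL34 (2.31 ± 0.29), RPL39 (2.02 ± 0.28) and RPL35A (2.52 ± 0.35) followed, and these 5 also turned lower when scaled by all reads and were not called in sums per experiment.

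Of the members lower on the T>C scale, some rested on few reads. RPL17 had 0 T>C reads in all 4 AsPC-1 NVP2 libraries, of 1870, 821, 2251 and 697 reads. If reads are independent, this allows shares of up to 0.160, 0.365, 0.133 and 0.430%, and RPL17 had 2.58 to 7.31% in DMSO. Its T>C counts in AsPC-1 DMSO were 35, 70, 49, 28 and 77, which share a common factor. Its reads may therefore not be independent, and these limits may be too low. No fold change is given for RPL17. RPL12 (-3.07 ± 0.69), RPL36A (-1.43 ± 0.34) and RPL7 (-1.71 ± 0.43) were the other 3 in AsPC-1, and RPL12 rested on 0 to 6 T>C reads per NVP2 library. In T3M-4, RPL3 fell from 255.8, 167, 79.0 and 113 to 55.5, 34.9, 28.1 and 10.2 T>C RPM (log2 -1.73 ± 0.46, adjusted p = 0.0181, edgeR). RPL7 (-1.88 ± 0.53), RPL12 (-3.03 ± 0.88), RPL14 (-0.94 ± 0.28) and RPL13A (-0.93 ± 0.29) were also lower. The calls of these 5 were lost in batch 2 alone and in sums per experiment, and that of RPL12 in batch 1 alone. RPL3, RPL12, RPL13A and RPL14 lost their calls without DMSO replicate 1.1, RPL7, RPL12 and RPL13A without DMSO replicate 2.1, and RPL13A without NVP2 replicate 1.1. RPL7, RPL12, RPL13A and RPL14 each lost theirs without DMSO replicate 1.2, DMSO replicate 2.2 or NVP2 replicate 1.2.

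**Figure D3:**
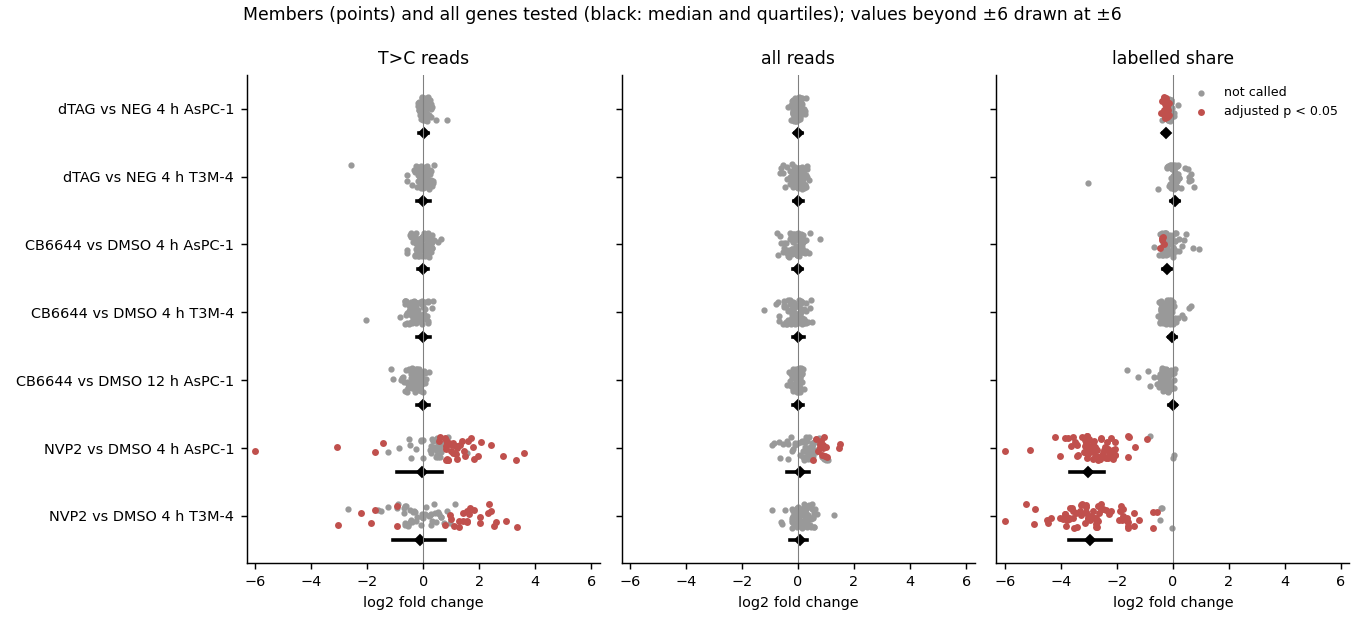
Log2 fold change of every member (points; red where adjusted p is under 0.05 in edgeR's test) in the 7 treatment comparisons for T>C reads, all reads and the labelled share, with the median and quartiles of all genes tested in black. Members spread away from 0 mainly after NVP-2, where the labelled share is centred near -2.79 and -2.87; values beyond 6 in size, among them RPL17, are drawn at the limit.

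All reads of the members were higher after NVP-2 in AsPC-1, relative to other transcripts. Of 77 members, 15 were higher and 0 lower, against 3.43% and 8.39% of all genes, 64 were above 0, and their median log2 fold change was 0.42 (all genes 0.06), at the 76.5th percentile. RPL37A, a zinc-finger protein of the large subunit, had 2293, 3197, 2580, 1988 and 1912 RPM in DMSO and 3933, 4739, 3876 and 4422 after NVP-2, without overlap (log2 1.04 ± 0.18, adjusted p = 0.00377, edgeR). RPL36 had 604, 612, 687, 518 and 479 in DMSO and 729, 2225, 847 and 1817 after NVP-2 (log2 1.48 ± 0.31, adjusted p = 0.0131, edgeR), the upper values in replicates 1.2 and 2.2. RPL14 (1.01 ± 0.22) and RPL37 (0.88 ± 0.19), one of the genes with more pseudogene reads than its own, were among the next by p. Others called were RPL35, RPL13, RPL22, RPL28, RPS3A, RPL8, RPL11 and RPL23. At the other end RPS27A (-0.94) and RPL7 (-0.86) had the lowest fold changes, neither called.

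The AsPC-1 count depended on single libraries and on the batch structure. It was 3 without NVP2 replicate 2.2, 4 without DMSO replicate 2.2, 7 without DMSO replicate 2.1, and 8 without DMSO replicate 1.2 or NVP2 replicate 1.2. The share of all genes called without each library is not given here, so these counts are not set against a background. The AsPC-1 libraries were divided into 3 sets, a number chosen here, by clustering on the 500 most variable genes. A block made of library set and experiment left 4 members called (1.31% of all genes higher and 5.76% lower), while DESeq2 called 28 (7.9% and 11.3%). RPL14 and RPL36 lost their calls with that block, and RPL14 without NVP2 replicate 2.2.

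In T3M-4 the same comparison called 0 of 77 members (edgeR), against 0.243% of all genes higher and 4.91% lower, with 7 members at an unadjusted p under 0.05, and DESeq2 called 0, with 12. Their median was 0.15 (all genes 0.06), and 55 were above 0. With the experiment as a replicate block, which pairs the batches, 8 were higher and 0 lower, against 5.95% and 9.86% of all genes. Batch 2 alone called 15 higher and 2 lower (6.78% and 12% of all genes), and batch 1 alone called 0 by edgeR (0.0438% and 1.86%), with 7 at an unadjusted p under 0.05. RPL37A had 2141, 1612, 1409 and 1421 RPM in T3M-4 DMSO and 2224, 1894, 1780 and 1499 after NVP-2, which overlap.

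**Figure D4:**
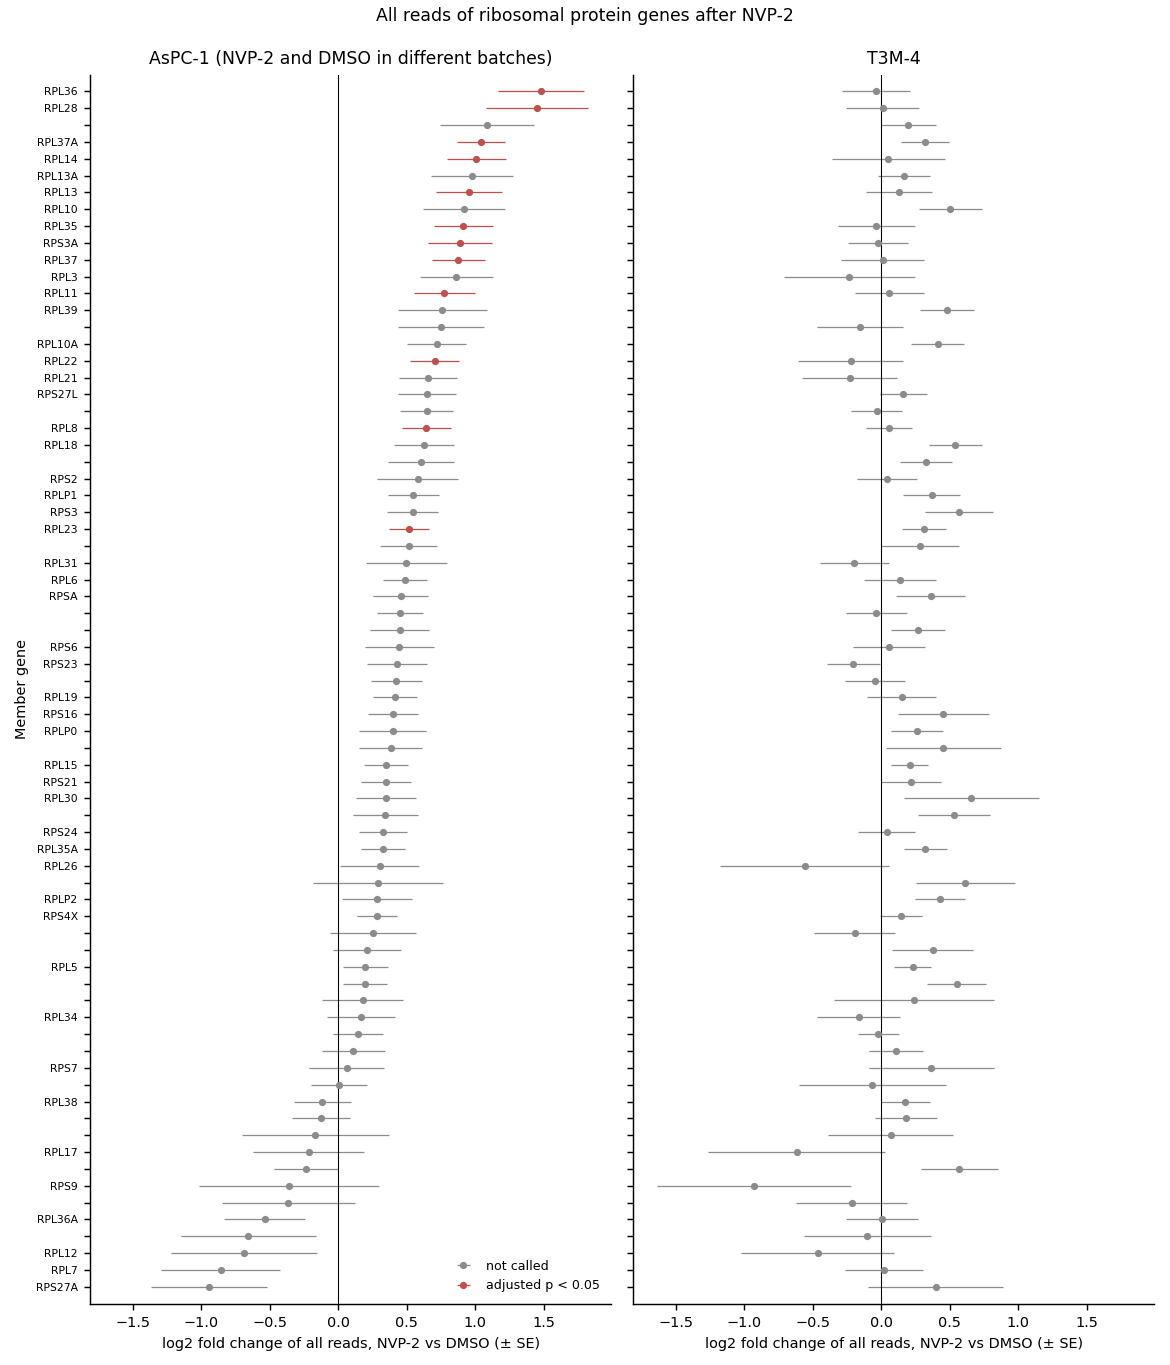
Log2 fold change of all reads after NVP-2 with its standard error for the members (a few are not drawn, and those named in the text are labelled), ordered by AsPC-1, on a shared axis for AsPC-1 (4 against 5 libraries) and T3M-4 (4 against 4). Members in red were called in AsPC-1, where treatment and batch coincide; none was called in T3M-4 by edgeR without the block.

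Whether the lines responded differently to NVP-2 was tested as an interaction (T3M-4 minus AsPC-1). On the T>C scale 2 of 75 members were called, both lower in T3M-4, against 0.296% of all genes higher and 0.555% lower. RPL36 took 65.7, 91.7, 111, 71.5 and 49.5 T>C RPM in AsPC-1 DMSO and 139, 311, 161 and 229 after NVP-2, while in T3M-4 it took 191, 174, 116 and 157 in DMSO and 122, 81.5, 96.6 and 62.5 after NVP-2 (interaction -2.23 ± 0.41 log2, adjusted p = 0.0143, edgeR). RPL14 had 81.3, 69.2, 77.6, 77.7 and 73.6 and then 71.6, 73.9, 59.0 and 104 in AsPC-1, and 200, 202, 115 and 151 and then 62.1, 53.2, 62.8 and 51.2 in T3M-4 (-1.53 ± 0.35, adjusted p = 0.0444, edgeR). With the replicate block 5 were called, 1 higher and 4 lower (0.768% and 0.942% of all genes). For all reads 0 of 77 members were called by edgeR (0.00599% of all genes in either direction), with 11 at an unadjusted p under 0.05. Batch and treatment coincide in the AsPC-1 arm of these tests.

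The other genes of translation were counted from lists. For all reads after NVP-2 in AsPC-1, 9 of 24 translation factors were higher and 1 lower, 5 of 75 mitochondrial ribosomal proteins higher and 0 lower, and 0 of 28 biogenesis factors higher and 1 lower. EEF1A1, which brings aminoacyl-tRNA to the ribosome (0.71), EEF2, the translocase (0.75), and TPT1 (0.75) were among those higher. On the T>C scale, 8 of 23 translation factors were higher and 3 lower in AsPC-1, and 2 higher and 3 lower in T3M-4. Of 27 biogenesis factors 0 were higher and 13 lower in AsPC-1, and 0 and 8 in T3M-4, where 17.6% and 14.2% of all genes were lower. Of the 6 paralogs and fusions listed outside the rule, 3 were lower in each line and 1 was higher in AsPC-1. The same 3 genes were lower in both: on the log2 scale of T>C reads RPL7L1 changed by -1.05 (AsPC-1) and -1.83 (T3M-4), RPL36AL by -1.72 and -2.11, and RPL22L1 by -1.47 and -2.92. RPL36AL had labelled shares of 11.04 to 12.7% in AsPC-1 DMSO and 0.31 to 0.59% after NVP-2, and RPL7L1 11.9 to 14.9% and 0.34 to 0.86%.

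RUVBL1/2 inhibition with CB-6644 lowered the labelled share of some members at 4 h in AsPC-1. Of 75 members tested, 5 fell and 0 rose, against 3.3% of all genes lower and 0.00861% higher, with a median log2 fold change of -0.23 against -0.22 over all genes. RPL8, which lies at the core of the large subunit, had 2.08, 2.07, 2.47, 1.97 and 2.05% in DMSO and 1.43, 1.41, 1.59, 1.60 and 1.72% after CB-6644, without overlap (log2 -0.46 ± 0.09, adjusted p = 0.0158, edgeR). RPS23 (-0.39 ± 0.08), RPS27A (-0.39 ± 0.09), RPL26 (-0.34 ± 0.08) and RPS16 (-0.34 ± 0.09) were the others. Relative to the library-wide share 0 members were called by edgeR (0% of all genes), with 14 at an unadjusted p under 0.05. The count was 0 without CB6644 replicate 1.2, 1 without DMSO replicate 1.2 or 1.3 or CB6644 replicate 2.1 or 2.2, and 2 without DMSO replicate 1.1 or CB6644 replicate 1.3. RPL8 lost its call only without CB6644 replicate 1.2 among these. The share of all genes called without each library is not given here. T>C reads and all reads of the members showed 0 calls by edgeR and by DESeq2 (0% of all genes in both), with 7 and 2 members at an unadjusted p under 0.05 by edgeR and 7 and 5 by DESeq2.

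At 12 h in AsPC-1 no member passed the test, and the members' values lay lower than those of most genes. The summed labelled share was 3.32, 3.22, 3.1 and 3.64% in DMSO and 2.80, 3.18, 2.58 and 2.62% after CB-6644, with 1 overlapping library. As a ratio to the library-wide share it was 0.338, 0.343, 0.366 and 0.391 in DMSO and 0.307, 0.325, 0.313 and 0.323 after CB-6644, without overlap. By edgeR 0 of 75 members were called for the share (0% of all genes), with 38 at an unadjusted p under 0.05, where 574 of 12151 genes had one. Only 4 members were above 0, and the median was -0.30 against -0.01 over all genes, at the 9.67th percentile. RPL8 had 2.31, 2.19, 2.04 and 2.2% in DMSO and 1.53, 1.54, 1.18 and 1.22% after CB-6644 (log2 -0.67 ± 0.11, adjusted p = 0.143, edgeR), and RPS6 3.12, 4.15, 3.26 and 3.42% and then 2.38, 2.22, 2.35 and 2.47% (-0.57 ± 0.11, adjusted p = 0.232, edgeR). Both were chosen after their values were seen. T>C reads had a median of -0.28 against -0.01 over all genes, with 0 of 75 called by edgeR (0% of all genes), 9 at an unadjusted p under 0.05, and 1 lower by DESeq2. The translation factors had a median of -0.29 on this scale, the biogenesis factors -0.21 and the mitochondrial ribosomal proteins -0.01. All reads had 0 calls by edgeR (0% of all genes) and DESeq2, 0 members at an unadjusted p under 0.05 by either, and a median of -0.03.

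In T3M-4 at 4 h the values after CB-6644 split by batch. The summed labelled share was 4.19 and 3.56% in the CB6644 libraries of batch 1, below the DMSO pair of that batch (6.01 and 5.58%), and 5.44 and 5.47% in batch 2, level with its DMSO pair (5.31 and 5.51%). RPL8 went from 3.74 and 3.76% to 2.31 and 2.02% in batch 1 and from 3.71 and 3.60% to 3.85 and 3.32% in batch 2. Over both batches 0 of 76 members were called by edgeR for the share (0% of all genes), with 22 at an unadjusted p under 0.05, and the median was -0.24 against -0.02 over all genes, at the 15.4th percentile. The number of all genes at that unadjusted p is not given here, so the 22 is not set against a background. The median was -0.47 in batch 1 alone and -0.05 in batch 2 alone. T>C reads had 0 of 76 called by edgeR (0% of all genes) and DESeq2, with 7 at an unadjusted p under 0.05 by edgeR and 9 by DESeq2, and medians of -0.27 over both batches, -0.45 in batch 1 and -0.07 in batch 2. All reads had 0 of 77 called by edgeR (0.0127% of all genes) and DESeq2, 1 and 2 at an unadjusted p under 0.05, and a median of -0.09. The interaction with line called 0 members for T>C reads and 0 for all reads by edgeR (0% of all genes in both), with 6 and 0 at an unadjusted p under 0.05.

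**Figure D5:**
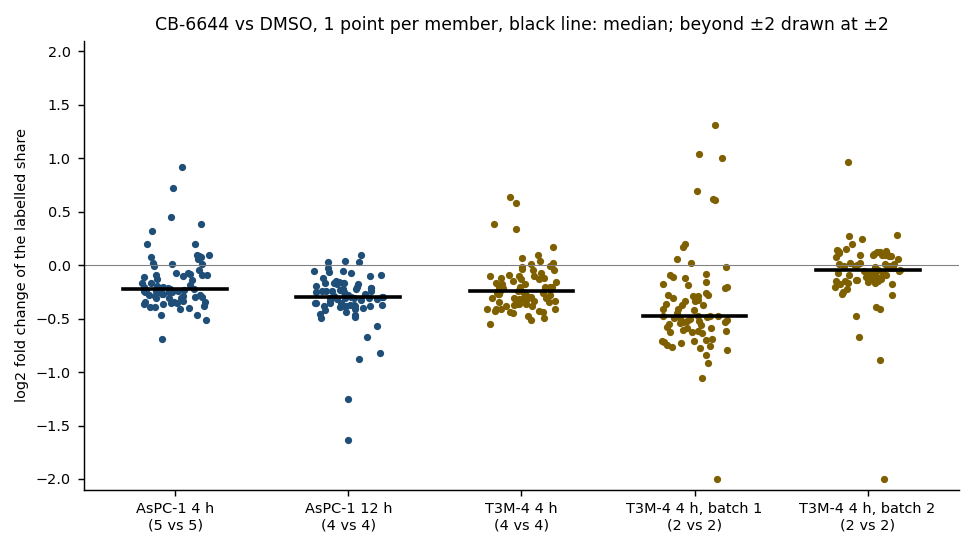
Log2 fold change of the labelled share after CB-6644 for each member (points) with the median (line), in AsPC-1 at 4 h and 12 h and in T3M-4 over both batches and within each. The medians are -0.23, -0.30 and -0.24, and in T3M-4 -0.47 in batch 1 and -0.05 in batch 2; points beyond 2 in size are drawn at the limit.

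Degradation of KLF5 left T>C and all reads of the ribosomal protein genes without a call in either line. In AsPC-1, 0 of 75 members were called for T>C reads (2.4% of all genes in either direction) and 0 of 77 for all reads (0.797%) by edgeR and by DESeq2, with 4 and 0 at an unadjusted p under 0.05 by edgeR and 3 and 0 by DESeq2. The medians were 0.05 and -0.04, against 0.03 and 0.01 over all genes. In T3M-4, 0 of 77 were called for T>C reads (0.834% of all genes), all reads (0.0191%) and the labelled share (0.256%) by edgeR, with 0, 0 and 1 at an unadjusted p under 0.05, and DESeq2 called 0 for both kinds of reads. RPLP0 differed between dTAGv-1 and its inactive analogue by -0.04 ± 0.18 (SE; log2 of T>C reads, AsPC-1) and 0.34 ± 0.27 (T3M-4), and RPS6 by 0.11 ± 0.18 and -0.04 ± 0.14. The interaction of line and dTAG called 0 members for T>C reads (0.0426% of all genes) and all reads (0.0119%) by edgeR, with 1 and 0 at an unadjusted p under 0.05.

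The labelled share was lower after dTAGv-1 in AsPC-1. The summed share lay between 2.92 and 3.78% in the 9 dTAG libraries and between 2.86 and 3.94% in the 10 NEG libraries, which overlap. By edgeR 22 of 75 members were lower and 0 higher, against 40.2% of all genes lower and 0.0342% higher, and the members' median of -0.14 was smaller in size than that of all genes (-0.26). RPL8 had 1.5, 1.64 and 1.88% as lowest, median and highest in dTAG and 1.88, 2.07 and 2.26% in NEG which meet at 1.88% (log2 -0.32 ± 0.05, adjusted p = 0.000359, edgeR). RPL18 (-0.32 ± 0.07), RPS6 (-0.27 ± 0.06), RPL21 (-0.32 ± 0.08) and RPL15 (-0.22 ± 0.06) followed. Relative to the library-wide share 0 members were called by edgeR (1.42% of all genes lower and 0.0342% higher), with 4 at an unadjusted p under 0.05. Batch 1 alone called 26, all lower, where 40.9% of all genes were lower and 0.0259% higher, and batch 2 alone called 0 by edgeR (0.321% and 0%, with 9 members at an unadjusted p under 0.05), and the count was 0 without experiment 1 and 11 without experiment 2. Among the lists, 31 of 74 mitochondrial ribosomal proteins, 11 of 23 translation factors and 13 of 27 biogenesis factors were also lower.

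The lines themselves differed in DMSO at 4 h. For all reads 21 of 77 members were higher in T3M-4 and 12 lower, against 30.5% and 25.2% of all genes. RPL6 had 203, 252, 163, 226 and 257 RPM in AsPC-1 and 409, 425, 488 and 465 in T3M-4 (log2 0.93 ± 0.15, adjusted p = 0.000387, edgeR). RPS4X, encoded on the X chromosome, had 540, 683, 476, 527 and 527 in AsPC-1 and 253, 236, 200 and 222 in T3M-4 (-1.36 ± 0.14, adjusted p = 1.91e-05, edgeR). Neither gene's libraries overlapped, though RPL6 had more reads in its pseudogene rows than in its own in both lines. RPS6 (1.05 ± 0.21), RPL5 (0.60 ± 0.12) and RPL35 (0.95 ± 0.20) were also higher in T3M-4, and RPS21 (-1.36 ± 0.22), RPL36A (-1.48 ± 0.27), RPS7 (-1.54 ± 0.34, also outnumbered by its pseudogene reads) and RPS27L (-0.92 ± 0.22) lower. RPL39L, a paralog outside the members for its 0 to 0.12 RPM in AsPC-1 DMSO, had 12.4 to 14.3 in T3M-4.

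The labelled share was higher in T3M-4 for 48 of 75 members and lower for 0, against 13.2% and 1.37% of all genes, with a median of 0.53 (all genes 0.24). Among those of smallest p were RPL3 (1.06 ± 0.12), RPL37 (0.81 ± 0.09, with the same doubt), RPL14 (1.06 ± 0.12) and RPL8 (0.80 ± 0.09). RPL3 had 2.75, 3.46, 3.32, 3.45 and 3.76% in AsPC-1 and 7.07, 7.79, 6.42 and 6.66% in T3M-4, without overlap. Relative to the library-wide share, which was itself higher in T3M-4, 21 members were higher and 3 lower, against 4.17% and 9.53% of all genes. For comparison, 12 of 74 mitochondrial ribosomal proteins, 11 of 23 translation factors and 4 of 27 biogenesis factors were higher in share.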

How the data were processed

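SLAM-seq libraries were compared within each line. The authors prepared QuantSeq 3′ libraries, aligned single-end reads to hg38 and, with slamdunk left at its defaults, counted those in 3′UTR exons of GENCODE v44 before summing by gene (slamdunk version not given in the sources used here). The authors deposited raw counts, with no normalization, in 1 table of T>C reads and 1 of all reads per line. The tables held 18 unnamed empty columns and 0 unnamed columns with values.

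Counts were tested with edgeR 4.0.16 (filterByExpr, TMM, quasi-likelihood) over all genes of the groups compared, in R 4.3.3, with Benjamini-Hochberg adjusted p under 0.05 called; the labelled share was tested on T>C counts with the log of the gene's all reads as offset and no other scaling. The filter on low counts left 75 to 77 of the 77 members, RPS9 among those removed. SE was taken from the log2 fold change and the F statistic (their quotient with F under a root). DESeq2 1.42.0, a replicate block, scaling by all reads, single batches, sums per experiment and each library left out were alternatives; the library-set block and the relative share between lines were added after seeing the data. Values scaled to library size were computed from column totals. Tables were made in Python 3.11.15 with pandas 2.3.3. The fits were tested on simulated data. Members at an unadjusted p under 0.05 are given with a count over all genes only for the labelled share at 12 h. Elsewhere such counts are not set against a background.

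The members, lists and named genes were chosen with earlier results of these data known. Named were up to 5 called members of smallest p per comparison and direction, the 5 of highest and lowest mean labelled share, and members and translation genes fixed for their roles; some genes that this rule takes are not reported here. Nothing says that libraries came from separate cultures, so p-values measure the spread between libraries.

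Replicate numbers pair samples in T3M-4, where the labels tie them to batches. In the AsPC-1 dTAG comparison same-numbered libraries deviated together (correlations of T>C deviations 0.44, 0.62 and 0.51). At 12 h in AsPC-1 these correlations were 0.14 to 0.69. Replicates 3 and 4 matched their own number best there, but DMSO replicates 1 and 2 each matched the CB6644 library of the other number best. Pairing by number is thus not borne out for replicates 1 and 2 at 12 h. Promoter windows are from RefSeq (GRCh38.p14).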

Additional observations from a re-analysis of the deposited data

Results flagged for a closer look

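Of 120 combinations of quantity and group tested for a library far from the rest, 6 were found, where chance gives about 1 in 20. Members took 10.1% of all reads in AsPC-1 DMSO 4 h replicate 1.2, where the nearest library had 8.57%, and their summed labelled share was 4.64% in replicate 1.3 of that group, with 3.98% next. RPLP0 had a labelled share of 5.66% in T3M-4 dTAG replicate 1.2, with 4.62% next. AsPC-1 dTAG replicate 3.3 stood apart for RPS6 (3.31%, with 2.87% next) and, on the low side, for RPL5 (3.72%, with 4.94% next). RPL5 had 6.88% in AsPC-1 DMSO 12 h replicate 4, with 4.71% next.

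The response of T>C reads to NVP-2 differed between the lines in the interaction test for RPL36 (-2.23 log2, T3M-4 minus AsPC-1) and RPL14 (-1.53 log2), and in the AsPC-1 arm batch and treatment cannot be told apart.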

How the results depend on the processing

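Counts of members called moved beyond 1.5 times the reported one as follows. Scaled by all reads, T>C calls were 1 for dTAG in AsPC-1, 71 for NVP2 in AsPC-1 and 69 in T3M-4. Relative to the library-wide share, calls of the share were 0 for dTAG and 0 for CB6644 4 h in AsPC-1, 1 for CB6644 12 h, 31 for NVP2 in AsPC-1 and 24 between lines. DESeq2 called 1 for CB6644 12 h T>C reads and 28 for NVP2 all reads in AsPC-1. Sums per experiment called 15 (AsPC-1) and 0 (T3M-4) of NVP2 T>C reads. With library set and experiment as a block, CB6644 12 h share had 1, NVP2 in AsPC-1 22 for T>C and 4 for all reads. Batch 2 alone gave 0 for the dTAG share and 1 for dTAG all reads in AsPC-1, and 17 for NVP2 all reads in T3M-4. The replicate block moved 2 counts: NVP2 all reads in T3M-4 to 8 and the NVP2 interaction of T>C reads to 5, and it changed no call of a named gene. In AsPC-1 NVP2 the samples share only a number, and the correlation of T>C deviations between same-numbered libraries was 0.02. In AsPC-1 CB6644 4 h the samples also share a batch, and that correlation was 0.39 (0.66 for all reads).

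Scaled by all reads, T>C changes after NVP-2 turned lower for RPL38 (-0.39), RPS21 (-0.77), RPL37A (-1.40) and RPL36 (-1.30) in AsPC-1 and for RPL38 (-0.43), RPS21 (-0.64), RPL34 (-0.68), RPL39 (-1.0) and RPL35A (-0.51) in T3M-4. Leaving out single libraries or experiments gave 0 to 26 calls for the dTAG share and 0 to 7 for the CB6644 4 h share in AsPC-1, 3 to 19 for NVP2 all reads in AsPC-1, and 19 to 33 for NVP2 T>C reads in T3M-4. These counts and those of the other settings are set against a background only where the share of all genes is given above. The median share stayed between 3.47 and 3.67% in AsPC-1 and 5.09 and 5.46% in T3M-4. Over the 73 members with at least 1000 reads in every DMSO 4 h library it was 3.57 and 5.20%, and the shares of RPS9, RPL17 and RPL12 are among those that depth limits most. The cause of these shifts was not tested.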
